A study of Caenorhabditis elegans with 3 samples.

Results

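The regions described here are EGL-27 binding peaks that lie in the promoter window of a single gene but away from its annotated start. A peak was taken when its summit fell between 1000 bp upstream and 200 bp downstream of the 5' end of exactly 1 protein-coding gene, and when it lay 201 to 1000 bp upstream of that 5' end. Of the 1997 peaks that the authors kept after comparing replicates by the irreproducible discovery rate (IDR), 403 (20.2%) met this rule, at 393 genes, and are called upstream peaks below. The comparison classes were 248 peaks closer to the 5' end of a single gene (close peaks), 279 peaks in windows of more than 1 gene (shared-window peaks) and 1067 peaks outside every promoter window. The rule used position and gene records, not signal.

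The data come from ChIP-seq, in which DNA bound by a protein is enriched with an antibody and sequenced. All 3 biological replicates were whole L2 larvae, of pooled sex, from Caenorhabditis elegans strain OP177, so they form 1 group with no untagged or mutant group beside it. The strain carries the unc-119(ed3) III allele and the wgIs177 transgene, and stably expresses EGL-27 with a GFP-FLAG tag at its C terminus. The labels name egl-27 as the antibody target, give sonication as the way the chromatin was sheared, and give no age beyond the larval stage. Because whole animals were used, a peak can come from any tissue that carries the tagged protein, and the number of cells behind it is unknown.

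EGL-27 is related to the metastasis-associated (MTA) proteins, subunits of the NuRD complex, which removes acetyl groups from histones and remodels nucleosomes. In the worm it is known for roles in embryonic patterning, Hox gene control and cell migration. Many C. elegans genes are trans-spliced: a spliced leader RNA replaces the first stretch of the transcript, so that the annotated 5' end of a gene can lie at a splice acceptor, downstream of the place where transcription starts. Genes of small RNAs such as tRNAs, snRNAs and snoRNAs can have promoters of their own.

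The libraries were unequal. The list from replicate 1 held 13245 regions, with a highest signal of 38.0, against 30000 regions each in replicates 2 and 3, with highest signals of 169 and 175. Signal is the authors' value per region on a scale that is not named, so it is used below to rank and describe regions within a list, and depth is unknown because the files hold no read counts. The main replicate values are therefore given replicate by replicate.

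The summit regions of 8 of the strongest upstream peaks, none of which overlaps a UTR, are printed below to show the letters that recur under these summits. Each is the 121 bp centred on the summit, from RefSeq's WBcel235 sequence in ce11 coordinates, written 5' to 3' along the strand of the gene downstream (the minus strand for nspc-17 and ogt-1, the plus strand for the others). Capitals mark copies of GAGAGA (on the other strand TCTCTC), of CTGCGTC (on the other strand GACGCAG) and of CGCGC (on the other strand GCGCG), and where copies overlap the capitals run on.
rpl-3, chrIII:3867514-3867634: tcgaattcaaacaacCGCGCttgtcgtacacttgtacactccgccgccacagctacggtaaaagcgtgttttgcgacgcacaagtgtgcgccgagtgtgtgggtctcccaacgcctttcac
puf-9, chrX:5841210-5841330: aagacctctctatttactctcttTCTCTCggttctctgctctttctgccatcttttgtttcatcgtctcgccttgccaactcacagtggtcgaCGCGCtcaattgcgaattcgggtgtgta
rpl-35, chrIII:7854631-7854751: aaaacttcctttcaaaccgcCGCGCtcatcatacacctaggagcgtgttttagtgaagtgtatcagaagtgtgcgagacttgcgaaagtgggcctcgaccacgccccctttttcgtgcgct
H41C03.3, chrII:5844758-5844878: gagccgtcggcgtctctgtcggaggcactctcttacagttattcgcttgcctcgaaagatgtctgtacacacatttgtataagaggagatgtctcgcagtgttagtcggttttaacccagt
nspc-17, chrX:14525843-14525963: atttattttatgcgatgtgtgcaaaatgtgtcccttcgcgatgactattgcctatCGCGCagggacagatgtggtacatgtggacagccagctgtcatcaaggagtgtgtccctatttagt
serp-1.1, chrX:15841222-15841342: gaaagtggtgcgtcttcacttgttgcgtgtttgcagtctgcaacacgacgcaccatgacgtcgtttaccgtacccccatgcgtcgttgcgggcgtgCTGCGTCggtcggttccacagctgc
eelo-2, chrIV:17249833-17249953: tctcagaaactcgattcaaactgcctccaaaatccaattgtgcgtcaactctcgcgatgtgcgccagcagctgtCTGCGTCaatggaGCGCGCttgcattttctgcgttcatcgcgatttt
ogt-1, chrIII:7153956-7154076: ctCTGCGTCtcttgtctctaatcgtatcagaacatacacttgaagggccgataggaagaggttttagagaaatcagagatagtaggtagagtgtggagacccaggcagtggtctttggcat

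CGCGC occurred in 5 of these 8 stretches, CTGCGTC in 3 (serp-1.1, eelo-2 and ogt-1) and GAGAGA in 1 (puf-9). The H41C03.3 stretch held none of them, and it runs into sls-2.1, an annotated SL2 spliced leader RNA gene that begins at chrII:5844865. None of the 8 summits lies in a protein-coding gene.

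The strongest upstream peak lay 280 bp upstream of rpl-3, which encodes a protein of the large ribosomal subunit. Its signal was 278 in the IDR set and 14.0, 117 and 146 in replicates 1, 2 and 3. It ranked 127, 5 and 6 in the lists of those replicates, so replicate 1 placed it lower than the other two did. The next was 322 bp upstream of puf-9, a Pumilio-family RNA-binding protein, with a signal of 238 in the IDR set and 22.7, 88.1 and 125 in the replicates. That peak ranked 22, 22 and 14, the narrowest range of ranks among the 12 strongest peaks. A second gene of the large ribosomal subunit, rpl-35, followed with a peak 443 bp upstream, a signal of 223 in the IDR set and 17.6, 92.7 and 111 in the replicates.

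The peak 959 bp upstream of H41C03.3 had a signal of 205 in the IDR set, and its region ranked 21, 20 and 35. The peak 722 bp upstream of nspc-17, a member of a nematode-specific peptide family, had a signal of 199.8 in the IDR set and ranked 12, 224 and 12. It therefore stood lower in replicate 2 than in either other replicate. Peaks 290 bp upstream of serp-1.1 and 238 bp upstream of eelo-2 had signals of 195 and 191 in the IDR set. The peak 573 bp upstream of egg-5, which encodes an inactive phosphatase that acts at the oocyte-to-embryo transition, had 188. Replicate 1 gave each of these 3 peaks its lowest rank, at 84, 231 and 115.

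The 4 remaining peaks of the 12 strongest stood upstream of ogt-1 (219 bp, signal 183), the O-GlcNAc transferase gene, of cox-5A (286 bp, 175), a cytochrome c oxidase subunit gene, of epn-1 (477 bp, 174), an epsin gene of endocytosis, and of lgg-2 (326 bp, 166), an autophagy gene of the Atg8 family. The ogt-1 region ranked 953, 50 and 31 in replicates 1, 2 and 3, and the cox-5A region 2055, 76 and 33. Of the 12, cox-5A was the only one not among the 1997 strongest regions of every replicate, and it missed that number in replicate 1. The epn-1 region ranked 16, 24 and 137, with replicate 1 highest, and the lgg-2 region 111, 32 and 66.

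**Figure D1:**
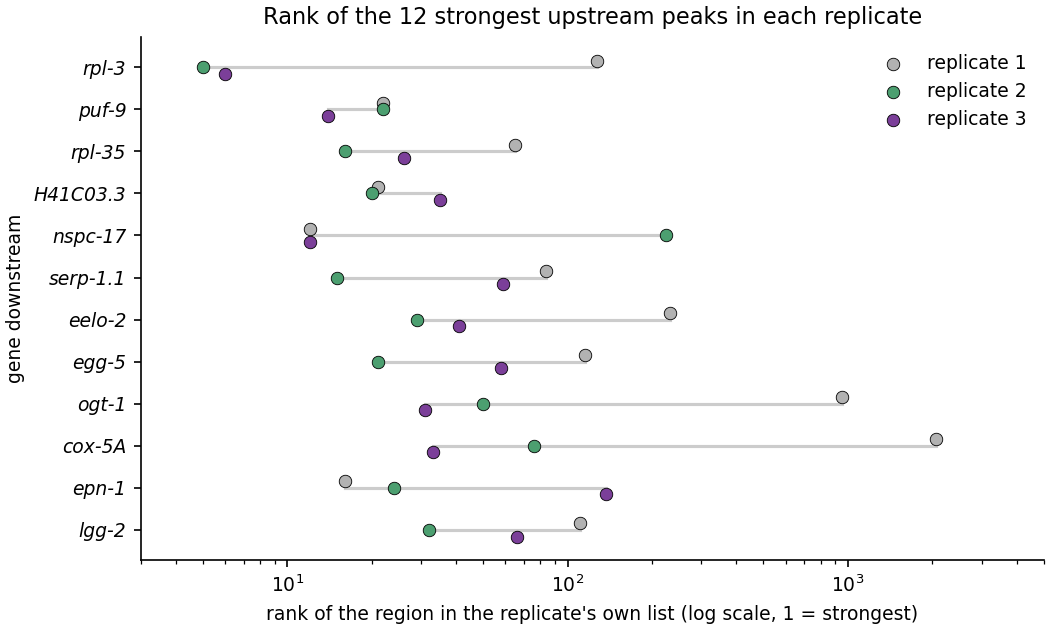
Rank of the 12 strongest upstream peaks (rows, by gene downstream, strongest in the IDR set at the top) in each replicate's own list, on a log scale where 1 is the strongest region. Replicates 2 and 3 placed each of the 12 within their first 224 regions, whereas replicate 1 ranged between 12 (nspc-17) and 2055 (cox-5A).

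Signal across the 403 upstream peaks ran between 34.8 and 278 with a median of 53.5 (quartiles 41.1 and 76.9). The median was 49.6 in close peaks and 50.8 over all IDR peaks. The ratio of the upstream to the close median was 1.08 in the IDR set. When the same rule was applied to the 1997 strongest regions of each replicate, the ratio was 0.939, 1.08 and 1.07 in replicates 1, 2 and 3 (mean 1.03 ± 0.0782, SD, n = 3). The classes thus differed in signal by less than the spread between replicates, with replicate 1 on the other side of equality. Signals over 100 occurred in 54 upstream peaks (13.4%) and in 21 close peaks (8.47%), with 13.6% in shared-window peaks and 11.6% over all IDR peaks. The 5 lowest upstream signals, 34.8 to 35.1, belonged to peaks at mep-1, C02D5.2, C34B4.2, sdc-1 and mppb-1.

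Upstream peaks were found in the replicates about as often as IDR peaks in general. Of the 403, 127 (31.5%) overlapped one of the 1997 strongest regions of replicate 1 by at least 1 bp, against 32.0% of all IDR peaks. In replicate 2 the number was 330 (81.9%), against 77.7% of all IDR peaks, and in replicate 3 it was 317 (78.7%), against 79.2%. In every replicate, 98 (24.3%) were found, against 25.0% of all IDR peaks. The difference between upstream and close peaks was −1.55, 6.89 and 2.85 percentage points in replicates 1, 2 and 3 (mean 2.73 ± 4.22, SD, n = 3), which an exact sign-flip permutation test, two-sided, did not separate from 0 (p = 0.5). With 3 replicates that test cannot go below 0.25, so no comparison between these classes can pass the usual threshold. The mean difference changed sign when summits had to lie within 100 bp of each other (−0.26 points) and among the stronger 50% of the peaks (−2.38 points).

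Applied to each replicate's own 1997 strongest regions, the rule gave 312, 405 and 383 upstream regions, or 18.4% ± 2.43 of them (SD, n = 3). These overlapped 110 upstream peaks of the IDR set in replicate 1 (27.3% of the 403 peaks and 34.9% of that replicate's upstream regions). In replicate 2 the overlap took in 316 peaks (78.4% of the peaks, 77.5% of the regions) and in replicate 3 it took in 308 (76.4% and 80.7%). The IDR peaks were made from these replicates, so their overlap is built in and only differences between classes are informative.

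Within the window, upstream peaks thinned out with distance. Per megabase of sequence where a summit would be assigned to a single gene, there were 66.4 peaks at 201 to 300 bp (103 peaks), 57.8 at 301 to 400 bp (90 peaks) and 31.0 at 401 to 500 bp (49 peaks). Beyond 500 bp the density ranged between 9.81 and 26.5 per megabase with no steady trend. The median summit lay 412 bp upstream. The densest 100 bp of the whole window lay just inside the limit that separates the classes, with 92.0 close peaks per megabase at 101 to 200 bp, so the limit of 200 bp divides a continuous distribution. The 3 upstream peaks nearest to it were at pab-2 (201 bp, signal 75.3), which encodes a poly(A)-binding protein, ucr-2.2 (203 bp, 55.2), a subunit gene of respiratory complex III, and mep-1 (205 bp, 34.8), a zinc-finger gene whose product joins the MEC complex with LET-418. Just outside it were close peaks at vps-37 (200 bp, 49.3), plrg-1 (200 bp, 59.2) and daf-19 (199 bp, 50.1). At the far limit stood mrps-28 (998 bp, 55.6), H41C03.1 (998 bp, 42.7) and ain-1 (996 bp, 158), with ugt-50 (54.7) at the same 996 bp.

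**Figure D2:**
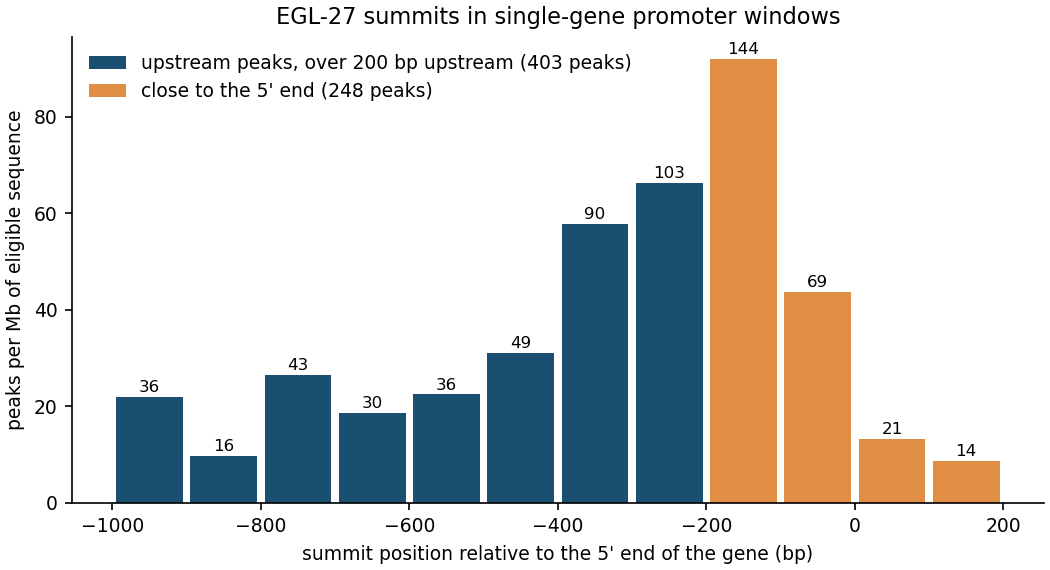
Peaks per megabase of eligible sequence (vertical axis) by the position of the summit relative to the gene's 5' end, in bins of 100 bp, with the number of peaks above each bar. Upstream peaks were densest at 201 to 300 bp (66.4 per megabase) and the highest bar of the window was the close bin at 101 to 200 bp (92.0 per megabase).

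Of the 403 summits, 367 (91.1%) lay outside every protein-coding gene and 26 (6.45%) lay in an intron of another gene. Another 5 fell in a 3' UTR and 3 in a 5' UTR. The median gap between the gene and its upstream neighbour was 2006 bp for genes with an upstream peak and 1524.5 bp for genes with a close peak. That neighbour lay on the same strand for 220 of the 393 genes (56.0%), against 123 of 248 (49.6%) for close peaks. The rule that defines the classes uses gene positions, which also shape the gap, the neighbour's strand and the share outside genes. These values were not set beside those of all genes or eligible positions, so any part of binding in them was not tested. Of the 393 genes, 5 also had a close peak.

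The X chromosome carried 98 upstream peaks (24.3% of the 403), against 64 close peaks (25.8% of the 248) and 22.4% of all IDR peaks. Per megabase of eligible sequence that was 49.97 on X and 28.2 on the autosomes, a ratio of 1.77, and the ratio for close peaks was 1.86. In the replicates' own strongest regions the share on X was 22.1%, 24.0% and 25.8% of upstream regions (24.0% ± 1.87) and 20.2%, 22.2% and 22.9% of close regions (21.8% ± 1.39, SD, n = 3). The difference was 1.90, 1.77 and 2.96 percentage points (mean 2.21 ± 0.649, exact sign-flip permutation test, two-sided, p = 0.25, the smallest it can give), whereas in the IDR set the close share was the higher. Upstream peaks on X and on the autosomes had similar median signals, 55.0 and 52.4.

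Short sequences were searched on both strands in the 201 bp around each summit and set beside 15021 control windows of the same length, which lie at the median upstream distance before genes with no IDR peak in their window. GAGAGA occurred in 188 upstream windows (46.7%), against 10.3% of control windows, a ratio of 4.52. CTGCGTC occurred in 77 (19.1%), against 1.74% of control windows, a ratio of 11.0. CGCGC occurred in 150 (37.2%), against 7.63%, a ratio of 4.88. With windows 500 bp to each side of the same summits as control, the 3 ratios were 4.88, 14.0 and 4.05. The sequences were chosen with earlier results of these data known, so the ratios describe these peaks and are not an independent test. The median GC content was 44.8% in upstream windows and 33.3% in control windows, so composition moved with these shares, and its part in them was not tested.

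CACGTG, the core of an E-box, occurred in 27 upstream windows (6.70%), against 3.19% of control windows. TGACGTCA, a cyclic AMP response element, occurred in 10 (2.48%), against 1.13%. Other sequences were scarcer under upstream summits than in control windows. GATAA, the core bound by GATA factors, occurred in 133 (33.0%), against 39.4% of control windows. TTTCAG, a splice-acceptor-like sequence, occurred in 44 (10.9%), against 34.2%. TATAAA occurred in 42 (10.4%), against 24.1%, and runs of TTTTTTTT in 31 (7.69%), against 24.3%. These scarcer sequences are mostly A and T, and control windows had the lower median GC content (33.3%, against 44.8% in upstream windows). Composition thus moved with these shares too, and its part in them was not tested.

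Close peaks had GAGAGA in 45.2% of windows, CTGCGTC in 19.8% and CGCGC in 35.9%, each within 2 percentage points of the upstream share. The other 6 sequences were more frequent in close windows, among them CACGTG with 10.1%, TTTCAG with 16.5% and TATAAA with 15.7%. In the replicates' own strongest regions GAGAGA occurred in 29.8%, 45.9% and 46.5% of upstream windows (40.7% ± 9.47, SD, n = 3) and in 22.9%, 44.4% and 43.4% of close windows (36.9% ± 12.1). CTGCGTC occurred in 10.3%, 16.8% and 19.3% of upstream windows of the replicates, and CGCGC in 22.4%, 34.3% and 34.7%, so replicate 1 was lowest for each of these 3 sequences. For none of the 9 sequences did upstream and close regions differ beyond what the exact sign-flip permutation test can show (two-sided, smallest p = 0.25, smallest Benjamini-Hochberg adjusted p = 0.5625). The difference, upstream minus close, was negative in 3 of 3 replicates for CACGTG (−0.72, −4.46 and −5.40 percentage points), for TTTCAG (−5.32, −7.89 and −5.54) and for TATAAA (−6.21, −6.73 and −7.09). By the rule, a close window of 201 bp can include the annotated 5' end of its gene and an upstream window cannot. The classes therefore differ in the sequence searched, and the part of this in the differences was not tested. Peaks outside the promoter windows had GAGAGA in 56.4% of windows and shared-window peaks in 29.4%.

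**Figure D3:**
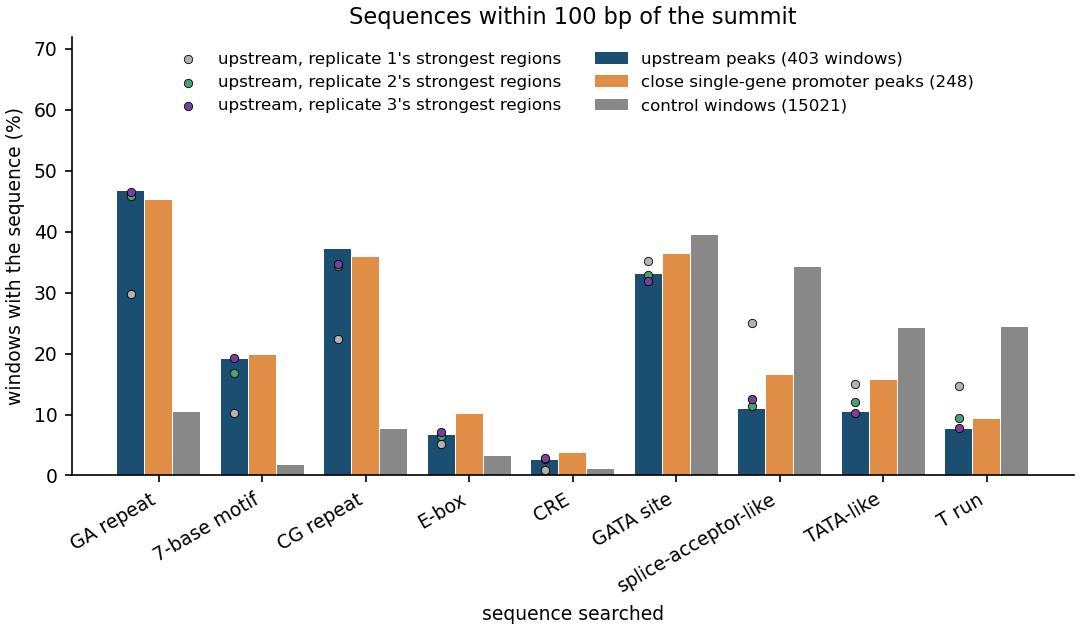
Share of 201 bp windows that hold each sequence (vertical axis, %), for upstream peaks, close peaks and control windows, with dots for the upstream regions of each replicate's own list. The GA repeat is GAGAGA, the 7-base motif CTGCGTC, the CG repeat CGCGC, the E-box CACGTG and the CRE TGACGTCA. The GATA site is GATAA, the splice-acceptor-like sequence TTTCAG, the TATA-like one TATAAA and the T run 8 bases of T. The first 3 stand 4.52, 11.0 and 4.88 times above control windows, and replicate 1 lies nearer to control than the other replicates for each of the 3. The sequences were chosen with earlier results of these data known.

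Hexamers chosen on the other IDR peaks, as the 5 with the highest ratio of summit to flank among 2080, were then counted in upstream windows. GACGCA occurred in 27.3% of them against 4.17% of control windows, and ACGCAG in 26.1% against 4.06%. These hexamers overlap each other within GACGCAG, the reverse complement of CTGCGTC. In 11.4% of upstream windows GCGCGC occurred, against 1.51% of control windows, with 8.68% against 1.28% for CGCGCG, and 1.99% against 0.553% for CCCGGG. Both alternating hexamers contain CGCGC or its complement.

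The 3 frequent sequences clustered at the summits. The nearest copy lay at a median of 31 bp for GAGAGA, 31 bp for CTGCGTC and 35 bp for CGCGC, among the windows that held one. For CTGCGTC, the share of upstream peaks with a copy was 9.43% in the 50 bp just after the summit and under 1% in each 50 bp bin beyond 200 bp. GAGAGA spread more widely, with 13.2% of peaks holding a copy 100 to 150 bp before the summit. Strand was uneven: GAGAGA read along the gene's strand only in 58 peaks and along the other strand only in 103, whereas CTGCGTC did so in 45 and 28.

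**Figure D4:**
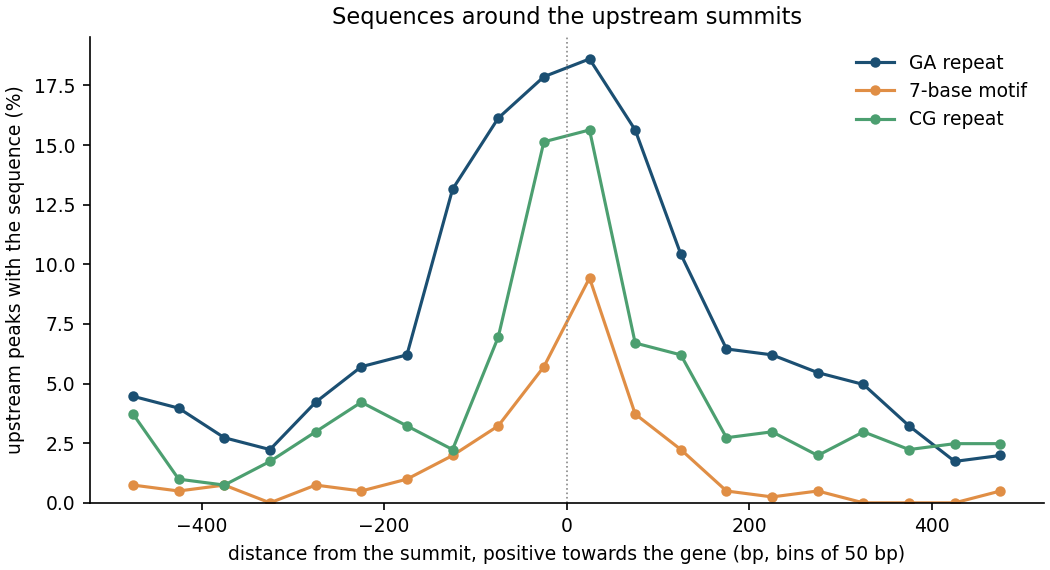
Share of the 403 upstream peaks (vertical axis, %) with a copy of GAGAGA (GA repeat), CTGCGTC (7-base motif) or CGCGC (CG repeat) in each 50 bp bin, by distance of the bin from the summit, with positive values towards the gene. All 3 were highest in the bin just after the summit, at 18.6%, 9.43% and 15.6% of peaks.

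Upstream peaks fell into groups by these letters. At least 1 of the 3 sequences was present in 285 windows, whose median signal was 55.9, and none in 118 (29.3%), whose median signal was 44.7. Windows with GAGAGA had a median signal of 58.1, and those without had 49.2. GAGAGA was more frequent among windows with CTGCGTC (74.0% of 77) than among the others (40.2% of 326). CTGCGTC varied little with distance, between 17.6% and 20.5% in each of 5 distance ranges. CGCGC occurred in 47.6% of windows at 201 to 300 bp and in 21.2% at 801 to 1000 bp. In the 26 peaks within introns of other genes, GAGAGA occurred in 26.9%, CTGCGTC in 3.85% and CGCGC in 46.2%. Of these 26 peaks, 7 lay within 100 bp of a tRNA, snRNA or snoRNA gene (26.9%, against 8.93% of all upstream peaks).

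Small RNA genes lay at some of the upstream summits. A tRNA, snRNA or snoRNA gene was annotated within 100 bp of 36 summits (8.93%), against 0.395% of the positions where an upstream summit could fall. They divided into 11 peaks at tRNA genes, 11 at snRNA genes and 14 at snoRNA genes. The 11 peaks at snRNA genes stood at 8 such genes, some of which had a peak on each side. Among close peaks the number was 3 of 248 (1.21%), where 0.161% of eligible positions are that near to such a gene. The share over all IDR peaks was 8.81%, so upstream peaks stood near the series as a whole and close peaks below it. These 3 gene classes were singled out after their values were seen. Any noncoding RNA gene, a class that includes many short unnamed ncRNA records, lay within 100 bp of 96 upstream summits (23.8%) and 21 close ones (8.47%). Over all IDR peaks the share was 22.2%, so here too upstream peaks stood near the series as a whole, with 14.7% in shared windows and 26.7% outside promoter windows.

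In the replicates' own strongest regions the share with a small RNA gene was 2.24%, 7.90% and 6.53% of upstream regions (5.56% ± 2.95) and 1.04% ± 0.227 of close regions (SD, n = 3). Upstream exceeded close in 3 of 3 replicates, by 1.18, 6.65 and 5.72 percentage points (exact sign-flip permutation test, two-sided, p = 0.25, the smallest it can give). The difference was 7.72 points in the IDR set and 4.37 points among the stronger 50% of the peaks. It was 2.23 points when the summit had to lie inside the small RNA gene. Without replicate 2, that is among IDR peaks found in the strongest regions of replicates 1 and 3, it was 4.54 points.

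Summits often stood just upstream of the small RNA gene, most of all at snoRNA genes. For snoRNA genes, 11 of 14 summits lay upstream of the snoRNA's 5' end, 3 inside the gene and 0 past its 3' end. For tRNA genes, 6 pairs of summit and gene had the summit upstream of the 5' end, 4 inside and 2 past the 3' end. For snRNA genes the numbers were 5, 3 and 4. The 36 small RNA peaks differed in sequence from the other 367: GAGAGA occurred in 7 (19.4%) of the windows against 49.3% of the others, and CTGCGTC in 0 of 36 against 21.0%. Their median signal was 49.3, against 54.0 in the others.

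The strongest small RNA peaks were at SL2 spliced leader RNA genes (sls-2), whose product is trans-spliced onto transcripts from downstream positions in operons. Of 18 annotated sls-2 genes, 9 lay within 100 bp of some IDR summit and 3 (sls-2.1, sls-2.4 and sls-2.7) within 100 bp of 5 upstream summits. The H41C03.3 peak of signal 205 stood 47 bp upstream of the 5' end of sls-2.1, and a second peak of signal 64.5 stood 47 bp past its 3' end. The strongest overlapping region was the same for both of them in each replicate, with signals of 23.1, 89.4 and 99.7. The 2 peaks overlap each other, so these values cannot show whether a weaker region of its own lay at the second. The egg-5 peaks flanked sls-2.4 in the same way, 44 bp upstream of its 5' end (signal 188) and 47 bp past its 3' end (113). Of that pair, the farther one from egg-5 was absent from replicate 1 and had signals of 50.9 and 32.7 in replicates 2 and 3. The next peaks of this kind stood at the snRNA gene F38E11.11 (signal 105, upstream of F38E11.9) and the snoRNA gene F59C6.15 (103, upstream of F59C6.18).

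Each of 10 genes had a pair of upstream peaks, and none had more. In 4 of them, egg-5, H41C03.3, F38E11.9 and snr-4, the pair flanked an snRNA gene. The summits of a pair lay 199 to 203 bp apart in 6 genes and 544 to 701 bp apart in the other 4. The largest summed signals after egg-5 (301) and H41C03.3 (270) were at ain-1 (247), a GW182-family gene of microRNA silencing, F38E11.9 (154) and lgg-1 (139), the second Atg8-family gene. The ain-1 summits lay 796 and 996 bp upstream, with signals of 89.8 and 158 and no small RNA gene between them. A single region of replicate 2 overlapped both. At F38E11.9 the strongest overlapping region was the same for both peaks in each replicate.

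The letters at the annotated 5' ends of the genes differed between classes. AG, the dinucleotide that ends introns, stood directly before the 5' end of 211 of the 393 genes with an upstream peak (53.7%), against 27.6% of all protein-coding genes. It stood there in 75 of 248 genes with a close peak (30.2%) and in 26.4% of the genes of the control windows. In the replicates' own strongest regions the share was 44.2%, 53.0% and 54.4% for upstream regions (50.5% ± 5.54) and 27.9% ± 2.06 for close regions (SD, n = 3). The groups did not overlap, and the difference was 14.9, 27.5 and 25.5 percentage points (mean 22.6 ± 6.74, exact sign-flip permutation test, two-sided, p = 0.25, the smallest it can give). In the IDR set the difference was 23.4 points. With replicates 1, 2 and 3 left out in turn, it was 27.3, 35.5 and 35.1 points. Those values use the IDR peaks found in the strongest regions of the other replicates. The AG measure was chosen after its values were seen.

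Among genes with an annotated 5' UTR, AG preceded the 5' end in 54.7% of genes with an upstream peak, 30.3% of genes with a close peak and 30.4% of all such genes. The longer acceptor-like TTTCAG stood there in 28.2% of genes with an upstream peak, 14.9% of genes with a close peak and 12.3% of all genes. For shared-window peaks only the gene with the 5' end nearest to the summit was counted, and AG preceded it in 37.8% of those genes. Among upstream peaks the share of genes with AG was 67.0% at 201 to 300 bp, 55.6% at 301 to 400 bp and 52.9% at 401 to 600 bp. It was 43.8% at 601 to 800 bp and 44.2% at 801 to 1000 bp, so it was highest for the nearer summits. Signal did not separate these groups, with medians of 54.0 where AG preceded the 5' end and 52.4 where it did not. CGCGC occurred in 42.5% of windows of genes with AG and in 31.0% of the others. Both CGCGC and AG were more frequent at 201 to 300 bp than at 801 to 1000 bp, and the part of distance in that difference was not tested.

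**Figure D5:**
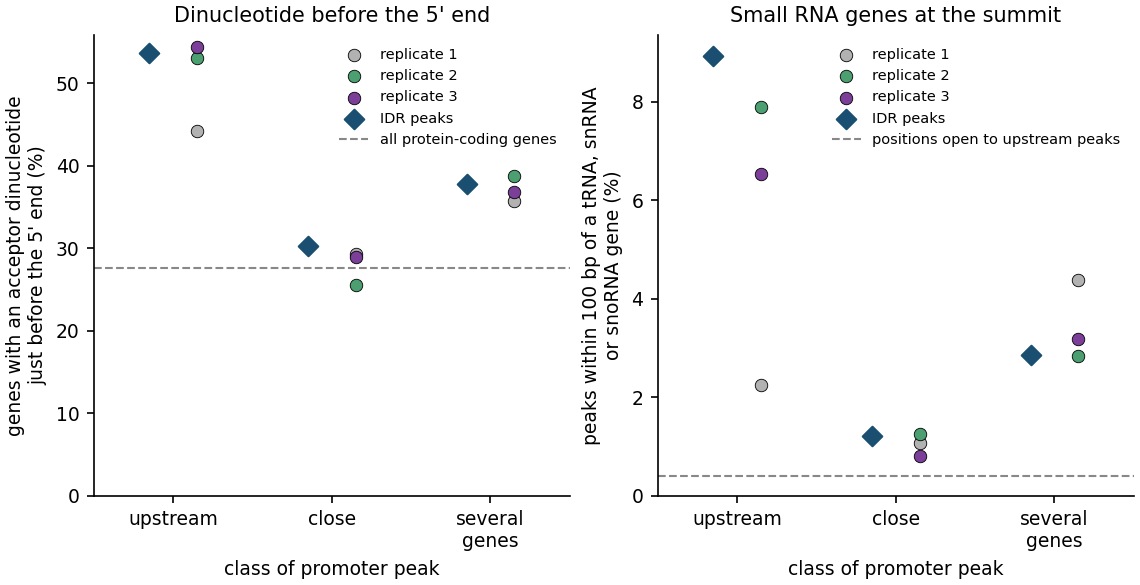
Left, share of genes with AG just before the annotated 5' end, and right, share of peaks within 100 bp of a tRNA, snRNA or snoRNA gene (vertical axes, %), by class of promoter peak. For peaks in windows of several genes, the left panel counts only the gene with the 5' end nearest to the summit. Diamonds are the IDR peaks, dots are each replicate's own strongest regions, and dashed lines are 27.6% of all protein-coding genes and 0.395% of the positions open to upstream peaks. Upstream dots lie above close dots in both panels in 3 of 3 replicates.

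Genes with an upstream peak were counted in 24 lists of gene families and pathways, with no test of the lists. Of all protein-coding genes, 1.97% had an upstream peak and 1.24% had a close peak. Several housekeeping lists stood above the 1.97% for upstream peaks. Of 82 cytosolic ribosomal protein genes, 9 (11.0%) had an upstream peak, with a median signal of 70.2 against 53.5 for all upstream peaks, and 2 had a close peak. They were rpl-3, rpl-35, rpl-11.2, rpl-6, rps-21, rps-24, rpl-41.2, rps-4 and rpl-38, with signals between 47.7 and 278. Of 38 genes of the respiratory chain and ATP synthase, 7 (18.4%) had one, led by cox-5A, with a median signal of 55.2, and 1 had a close peak. Translation factors and tRNA synthetases had 4 of 78 (5.13%), led by the elongation factor gene eef-1A.2 (signal 146), and 1 with a close peak.

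Chaperone genes had 5 of 80 (6.25%), led by hsp-1 (144), the constitutive Hsp70 gene, and 7 with a close peak. Ubiquitin pathway genes had 4 of 67 (5.97%), led by ubc-25 (87.0), a ubiquitin-conjugating enzyme gene, and 2 with a close peak. Splicing and RNA-binding genes had 3 of 78 (3.85%), and 5 (6.41%) with a close peak. Nuclear pore and transport genes had 2 of 40 (5.0%), led by the importin gene imb-3 (90.7), and 2 with a close peak. Mitochondrial ribosomal protein genes had 2 of 70 (2.86%), led by mrps-28, and 3 (4.29%) with a close peak. Cell cycle genes had 2 of 51 (3.92%), led by pcn-1 (105), which encodes the sliding clamp PCNA, and 2 with a close peak. No proteasome gene (0 of 33) and no histone gene (0 of 84) had an upstream peak, though 1 proteasome and 3 histone genes had close peaks. At the 1.97% of all genes, lists of this size would hold few genes with an upstream peak, so these counts of 0 say little.

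Among regulators, 3 of 13 heterochronic genes (23.1%), which time larval cell fates, had an upstream peak: puf-9 (238), lin-66 (60.5) and lin-28 (42.9). Of 10 genes of the NuRD and MEC complexes, 2 had one: lin-40 (47.4), which encodes another MTA protein, and mep-1 (34.8). Nuclear hormone receptor genes had 10 of 274 (3.65%), led by nhr-1 (102) and including the metabolic regulator nhr-49 (78.6) and nhr-25 (40.4). Genes of EGF, Ras and Notch signalling had 4 of 52 (7.69%), led by osm-11 (40.5), a secreted co-ligand of Notch. Insulin signalling had 2 of 26 (7.69%), the FOXO factor gene daf-16 (58.2) and akt-2 (55.8). The Wnt list had 2 of 33 (6.06%), led by the beta-catenin gene sys-1 (49.1).

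The remaining lists ran between 0.238% and 2.99%. Basic helix-loop-helix, T-box and GATA factor genes had 2 of 67 (2.99%), led by mdl-1 (94.0), and homeobox genes 1 of 92 (1.09%), ceh-20 (50.9), a PBX-family gene. Cuticle collagen genes had 5 of 176 (2.84%), led by col-63 (49.8), whose summit lay in the 3' UTR of ceh-8. Actin, tubulin and muscle genes had 1 of 57 (1.75%), the calponin gene cpn-3 (58.3). Some large families stood below the share of all genes. Chemoreceptor genes had 3 of 1261 (0.238%), led by srz-62 at 112. F-box and C-type lectin genes had 5 of 562 (0.89%), led by fbxc-29 at 91.3. Neuropeptide and insulin-like genes had 1 of 145 (0.69%), ins-39 at 160. Close peaks were at 0 genes of each of these 3 families.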

How the data were processed

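Binding of tagged EGL-27 was measured by ChIP-seq in 3 biological replicates. Per the notes and file headers deposited with each library, the authors made region lists for each replicate and for the pooled replicates, with a control, and an IDR-thresholded set from them, on ce10 and ce11. The IDR threshold, aligner and peak caller were not given in the sources read. The signal value per region and the −log10 q-value were deposited by the authors; only signal, whose scale is not named, was used here. Depth is unknown, so no counting intervals are given. The ce10 lists and the control were not used here. P-values compare the mean difference between classes of peaks with the means obtained when the signs of the replicates' differences are flipped. They concern these samples only.

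Summits were assigned to 19973 protein-coding genes (Ensembl release 115, WBcel235) with Python 3.11.15, numpy 2.4.6 and pandas 2.3.3. Code was tested on simulated peaks. An IDR peak was found in a replicate if it overlapped one of that replicate's 1997 strongest regions by 1 bp. Noncoding genes counted within 100 bp of the summit. Classes were compared by exact sign-flip permutation over 3 replicates (smallest p 0.25), adjusted by Benjamini-Hochberg over 9 sequences. Alternatives changed windows, limits, overlaps, peak strength, controls and replicates. Peaks and members of a list are not replicates, so other values are descriptions.

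The peaks, lists and sequences were chosen with earlier results of these data known. Named peaks were the 12 strongest, the strongest of each gene list, up to 5 genes with a pair of peaks, the 3 nearest each distance limit, the 5 weakest and up to 5 strongest with a noncoding RNA gene at the summit. Other genes are named where a count of few genes is listed, after their values were seen.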

Additional observations from a re-analysis of the deposited data

How the results depend on the processing

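Of 126 alternative values, 2 reversed, 32 moved and 92 did neither. A count was taken as moved when it changed by over 1.5 times, and a share or ratio when it changed by over 1 SD between replicates. The tested difference in the share found was read by its sign alone. The cause of the moves was not tested, except that fewer peaks or shorter windows give lower counts. Among the stronger 50% of the peaks there were 217 upstream peaks, the difference in the share found was −2.38 percentage points (exact sign-flip permutation p = 0.75) and the small RNA difference was 4.37 points. With summits within 100 bp the difference in the share found was −0.26 points (exact p = 1.0). Whole replicate lists put 13.4% of regions under the rule. With the summit inside the gene, the difference from close peaks was 6.92 points for any noncoding RNA gene and 2.23 points for small RNA genes. Windows of 50 bp on each side gave 31.3% with GAGAGA, 26.1 points above control windows, and 13.6% with CTGCGTC. For the 5' ends, TTTCAG in place of AG gave a difference of 13.3 points.

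Leaving out a replicate in turn did not remake the IDR set, which comes from all 3 replicates. It kept the IDR peaks found in the strongest regions of the other replicates. That gave 268 upstream peaks without replicate 1, 107 without replicate 2 and 112 without replicate 3. The small RNA difference was then 4.54 to 6.75 points and the AG difference 27.3 to 35.5 points. No paired analysis was possible because there is 1 group, so no groups of samples share replicate numbers; classes of peaks were compared within each replicate. With 3 replicates, 1 of which has shorter and weaker lists, no difference between classes can pass a test here, and signal shows order within a list, not occupancy.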
